A study of Mus musculus with 64 samples.

Results

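The 10 mice described here are the 5 with the most and the 5 with the least Nnt RNA among 16 F2 mice, and the question was which other striatal genes differed between them. Nnt encodes nicotinamide nucleotide transhydrogenase, a proton-driven enzyme of the inner mitochondrial membrane. It makes NADPH from NADH, and the NADPH feeds the glutathione and thioredoxin systems that remove hydrogen peroxide in the matrix. The C57BL/6J substrain carries a deletion within Nnt that C57BL/6NJ lacks, so the gene is a classical difference between these substrains. The mice were selected on their own Nnt RNA level, as the count scaled to the library's gene reads (CPM), and the 6 mice between the extremes were kept apart as samples that did not form the groups. The labels give no allele at Nnt, so the groups are named Nnt-high and Nnt-low by their RNA level alone.

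The mice came from an intercross of C57BL/6NJ and C57BL/6J. Each was homozygous at a selected locus that the labels do not name, either for the mutant C57BL/6NJ allele (N/N, called binge-prone) or for the wild-type allele of C57BL/6J (the J/J mice, called binge-resistant), with 8 mice of each genotype. Striatum punches were taken at 69 to 100 days of age, on day 24 of the protocol and straight after 5 min on the elevated plus maze, so all mice share that test. The Nnt-high group held 3 N/N and 2 J/J mice (3 females and 2 males), the Nnt-low group 4 N/N and 1 J/J (2 females and 3 males), and the middle group 1 N/N and 5 J/J (5 females and 1 male). These sexes are those of the sample labels, which give 5 females and 3 males per genotype, while the series' design text gives 4 of each. Genotype was a term in the model. Sex was not, and it was added as an alternative that uses the sample labels.

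Library depths overlapped between the groups, but all Nnt-high libraries except that of J/J female 1 were smaller than every Nnt-low library. The Nnt-high mice had 27405386 to 42819739 gene reads and the Nnt-low mice 31670334 to 51334152. Reads outside genes made up 18.8% to 21.4% and 17.9% to 20.4% of the total. Markers of medium spiny neurons, the main cells of the striatum, were present in every mouse, as described further on. Each mouse is a separate animal, and the tests measure the spread between animals.

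Nnt was at 49.2 CPM in J/J male 15, 39.4 in N/N female 13, 39.2 in N/N female 14, 39.2 in J/J female 1 and 39.0 in N/N male 5, the Nnt-high mice in rank order. The Nnt-low mice were J/J male 8 at 31.6, N/N female 2 at 28.9, N/N male 9 at 28.0, N/N female 4 at 26.5 and N/N male 12 at 24.3. These levels chose the groups and are a description without a test. The group means were 41.2 ± 4.46 and 27.9 ± 2.73 CPM (SD, n = 5 each), and the ratio of geometric means was 1.48-fold. Between the mouse with the most and the mouse with the least Nnt RNA the ratio was 2.02-fold, and no mouse was near 0.

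The upper boundary fell in a run of nearly equal values. N/N male 5, the last Nnt-high mouse, had 39.0 CPM and N/N female 11, the first middle mouse, had 38.9, and their 95% Poisson intervals were 36.9 to 41.3 and 36.6 to 41.3. The lower boundary was wider, with J/J male 3 at 34.7 on its upper side and J/J male 8 at 31.6 below it. When single sequencing runs were ranked, 2 to 5 of the 5 Nnt-high mice and 4 or 5 of the 5 Nnt-low mice were the same as in the summed data. In none of the 4 runs did a mouse move from one extreme group to the other. N/N mice ranged from 24.3 to 39.4 CPM (median 33.9) and J/J mice from 31.6 to 49.2 (median 36.2). The ranges overlapped, but the 4 lowest mice were all N/N and the highest was J/J.

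**Figure D1:**
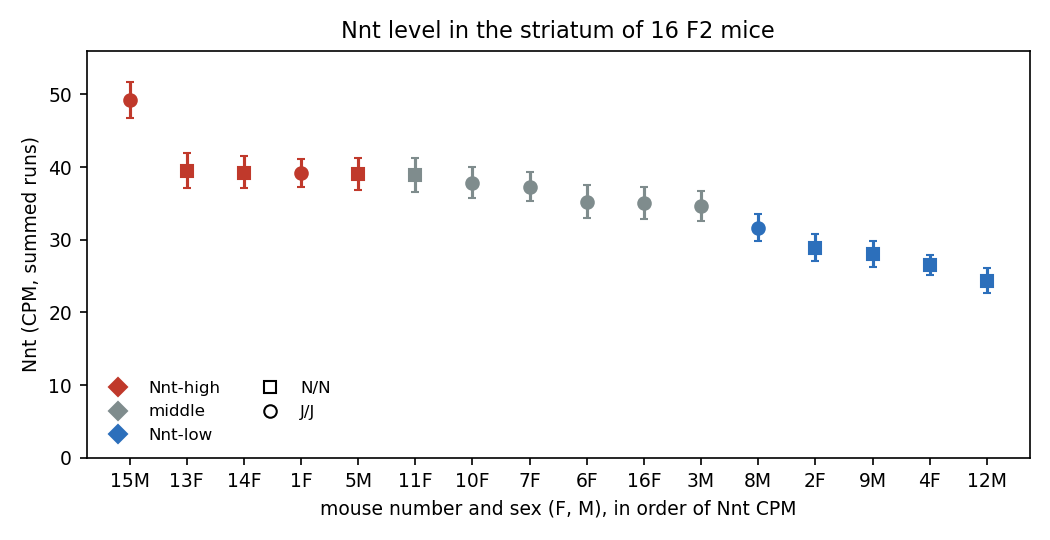
Nnt CPM (y axis, from 0) in the 16 mice in rank order (x axis, mouse number with F for female and M for male). Points are mice, squares N/N and circles J/J, and bars are 95% Poisson intervals that cover counting error only. J/J male 15 stands apart at 49.2, the other 4 Nnt-high mice (red) lie at 39.0 to 39.4 next to the middle mice (grey), and the Nnt-low mice (blue) descend from 31.6 to 24.3.

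No gene other than Nnt passed an adjusted p of 0.05 between the groups by edgeR's quasi-likelihood test with Benjamini-Hochberg adjustment. That is 0 of 16439 tested genes (0%), and the smallest adjusted p was 0.560. Before adjustment 1463 genes (8.90%) had a p under 0.05, of which 784 were higher (4.77%) and 679 lower (4.13%) in Nnt-high mice. In 86 genes (0.523%) all 5 Nnt-high mice lay above all 5 Nnt-low mice, and in 99 (0.602%) all lay below. limma-voom with the same model also called 0. DESeq2 called 15 (0.0912%), 12 of them higher. Its own adjustment kept Nnt, the gene that chose the groups, among the tests, which lowers its adjusted p-values. The count with Nnt left out was not computed, and at the same filtering it would be lower. The edgeR test on the 8 highest against the 8 lowest mice, with Nnt left out, called 18 (0.113%), 16 of them higher. Both of these calls held 6 genes in common, which is 40.0% of the first list and 33.3% of the second, and the comparisons share mice.

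The 6 genes in common were Scel, Hist1h2ac, Thbs3, Hipk4 and Mgat5b, all higher in Nnt-high mice, and Tmem196, which was lower. By DESeq2 Mgat5b had an adjusted p of 0.048 and Hist1h2ac of 0.0495. With Nnt left out and the same filtering both would lie above 0.05, so they are in common only with Nnt kept. Scel encodes sciellin, a protein of the cornified envelope. Its level in the Nnt-high mice, in the rank order above, was 7.02, 8.57, 6.64, 7.54 and 6.53 CPM. In the Nnt-low mice it was 4.16, 4.64, 5.81, 4.77 and 4.80 CPM. Every Nnt-high mouse was above every Nnt-low mouse. The log2 difference was 0.61 (SE 0.11, adjusted p = 0.560 by edgeR and 0.0018 by DESeq2).

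Hist1h2ac, a gene for histone H2A on the proximal part of chromosome 13, was at 1.67, 2.19, 2.01, 1.80 and 1.91 CPM in the Nnt-high mice. In the Nnt-low mice it was at 1.05, 1.03, 1.15, 1.17 and 1.48 CPM, without overlap. The log2 difference was 0.76 (SE 0.14). Histone genes of this cluster are near-identical and their main transcripts carry no poly(A) tail, so the count holds only the uniquely aligned reads of a poly(A) library. Thbs3, a thrombospondin of the extracellular matrix, was at 31.2 ± 3.20 CPM in Nnt-high and 22.4 ± 3.91 in Nnt-low mice (SD, n = 5), a log2 difference of 0.52 (SE 0.11). Its groups overlapped, since N/N male 9 of the Nnt-low group had 28.6 CPM and N/N male 5 of the Nnt-high group 28.0.

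Hipk4, a protein kinase, was at 101, 103, 110, 102 and 89.4 CPM in Nnt-high mice and at 60.5, 79.6, 90.5, 75.1 and 83.9 in Nnt-low mice. The log2 difference was 0.43 (SE 0.093), and a single pair of mice, N/N male 9 and N/N male 5, overlapped. Mgat5b, a brain glycosyltransferase, differed by 0.27 (SE 0.060). Tmem196, a membrane protein, was at 4.99, 2.96, 3.64, 4.51 and 4.33 CPM in Nnt-high mice and at 9.02, 4.67, 5.29, 6.64 and 5.81 in Nnt-low mice. Its log2 difference was -0.71 (SE 0.13). The J/J mice 15 and 8 had the highest value of their group.

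Col6a4, a chain of collagen VI, had the largest difference among the 15 genes of smallest p. It was at 24.1, 14.05, 19.9, 21.2 and 25.8 CPM in Nnt-high mice and at 7.36, 5.37, 12.5, 8.77 and 4.29 in Nnt-low mice, without overlap. The log2 difference was 1.44 (SE 0.29, adjusted p = 0.560 by edgeR and 0.030 by DESeq2). The 6 middle mice were at 12.02 to 19.1 CPM and overlapped both groups, since 2 of them lay below the Nnt-low mouse at 12.5 and 2 lay above 14.05, the lowest Nnt-high value. Amz1, a metallopeptidase, was at 27.7 to 30.6 CPM in Nnt-high and 20.9 to 26.1 in Nnt-low mice, a log2 difference of 0.32 (SE 0.070).

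Lower in Nnt-high mice were Ano4, a member of the anoctamin family of membrane proteins, and Pou3f2, a POU-domain transcription factor of neurons, both without overlap. Ano4 was at 15.9 to 17.7 CPM in Nnt-high and 18.96 to 20.2 in Nnt-low mice (log2 difference -0.25, SE 0.051). Pou3f2 was at 28.4 to 32.1 and 33.8 to 40.7 CPM (-0.27, SE 0.059). Dpy19l1 differed by -0.30 (SE 0.065). The remaining 4 of the 15 were all higher in Nnt-high mice without overlap. They were Jsrp1 at a log2 difference of 0.36, the microRNA locus Mir1900 at 0.70, the B-cell receptor gene Cd79b at 1.14 and the GTPase-activating protein gene Arhgap27 at 0.28. Cd79b was under 0.6 CPM in every mouse. For Mir1900 a poly(A) library counts reads of any longer transcript over the locus, so the value is not that of the mature microRNA. None of the 15 turned sign in any alternative or with any mouse left out. The log2 difference of Scel was 0.60 and that of Col6a4 1.51 with a sex term, and 0.54 and 1.37 without J/J male 8, the sole J/J mouse of the Nnt-low group. Without that mouse, here and below, the genotype term also absorbs J/J mice 15 and 1. The difference then rests on the N/N mice, 3 Nnt-high against 4 Nnt-low.

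**Figure D2:**
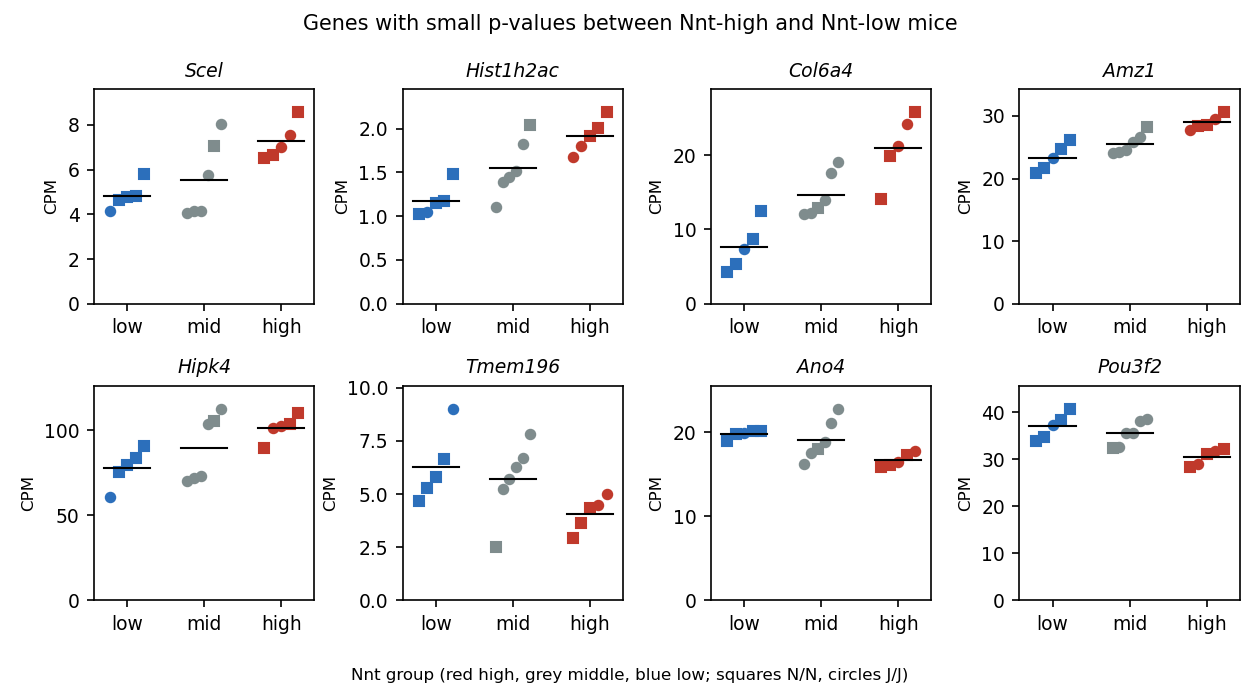
CPM (y axes, from 0) of 8 genes with small p-values in each mouse of the Nnt-low (blue), middle (grey) and Nnt-high (red) groups. Squares are N/N, circles J/J, and black lines group means. Col6a4, Amz1, Scel and Hist1h2ac separate the extreme groups upwards and Ano4 and Pou3f2 downwards, while Hipk4 and Tmem196 overlap, and none passed an adjusted p of 0.05 by edgeR.

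The patterns most like and most opposite to that of Nnt were taken by Spearman's rank correlation of log2 CPM over all 16 mice, which share library and depth with Nnt. The closest were Ehmt2, a histone H3 lysine methyltransferase, at 0.89, Jsrp1 at 0.86 and Col6a4 at 0.85. Ehmt2 was at 245 to 267 CPM in Nnt-high and 227 to 235 in Nnt-low mice. The most opposite were Pmfbp1 at -0.91, Maats1, a gene of motile cilia, at -0.86 and Stard5, a lipid-transfer protein gene, at -0.85. Stard5 was at 4.76 to 7.55 CPM in Nnt-high and 7.72 to 10.8 in Nnt-low mice. Pmfbp1 was at most 0.604 CPM in any mouse. These genes were picked for this pattern, and their correlations are descriptions.

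The second question concerned the neighbours of Nnt on chromosome 13. In the RefSeq annotation of GRCm38.p6, the assembly of mm10, Nnt spans chromosome 13 from 119335527 to 119409257 on the minus strand. It lies near the distal end, and the tested genes beyond it reached only 0.356 Mb away. Of the 11 tested genes within 2 Mb, 0 passed an adjusted p of 0.05. An unadjusted p under 0.05 was found for 2 (18.2%, beside 8.90% over all genes), both lower in Nnt-high mice (beside 4.13%). The median log2 difference of the 11 was -0.064, against 0.00099 over all tested genes.

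Fgf10, a fibroblast growth factor 0.543 Mb away on the proximal side, was at 4.49, 2.99, 4.15, 4.44 and 4.36 CPM in Nnt-high mice and at 6.95, 3.68, 4.89, 5.06 and 4.48 in Nnt-low mice. The highest value belonged to J/J male 8 and the groups overlapped. The log2 difference was -0.35 (SE 0.14, adjusted p = 0.560). J/J male 8 also had the highest summed cortical glutamatergic markers of all 16 mice, at 1935 CPM, and their part in the Fgf10 difference was not tested.

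The genes next to Nnt differed little. Paip1, a regulator of translation 0.019 Mb away, was at 66.0 to 69.4 CPM in Nnt-high and 62.5 to 76.4 in Nnt-low mice (log2 difference -0.066, 95% interval -0.18 to 0.052). The cholesterol synthesis gene Hmgcs1 (-0.064), the mitochondrial ribosome gene Mrps30 (-0.064), the zinc finger gene Zfp131 (-0.083), the kinase gene Nim1 (-0.014) and 4833420G17Rik (0.081) were all within 0.1 of 0. The wider intervals belonged to 3 genes. Gm7120, now named Tmem267, had a log2 difference of 0.20 (95% interval -0.25 to 0.65), the chemokine gene Ccl28 0.085 (-0.66 to 0.83) and 3110070M22Rik 0.0043 (-0.76 to 0.77).

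Over longer distances, 11 of 93 tested genes within 20 Mb had an unadjusted p under 0.05 (11.8%, beside 8.90% over all genes), 2 higher and 9 lower. The 4 of smallest p beyond 2 Mb were Pik3r1, a regulatory subunit of phosphoinositide 3-kinase (-0.18, SE 0.047, without overlap), the cyclin gene Ccnb1 (-1.11, SE 0.36), Trim23 (-0.19, SE 0.067) and Sgtb, a co-chaperone gene (-0.13, SE 0.049). Ccnb1 was under 1.9 CPM in every mouse. All 4 lie more than 15 Mb from Nnt. Over the whole chromosome 48 of 602 genes were below 0.05 (7.97%), which placed chromosome 13 at 18 in order of this share among 20 chromosomes.

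**Figure D3:**
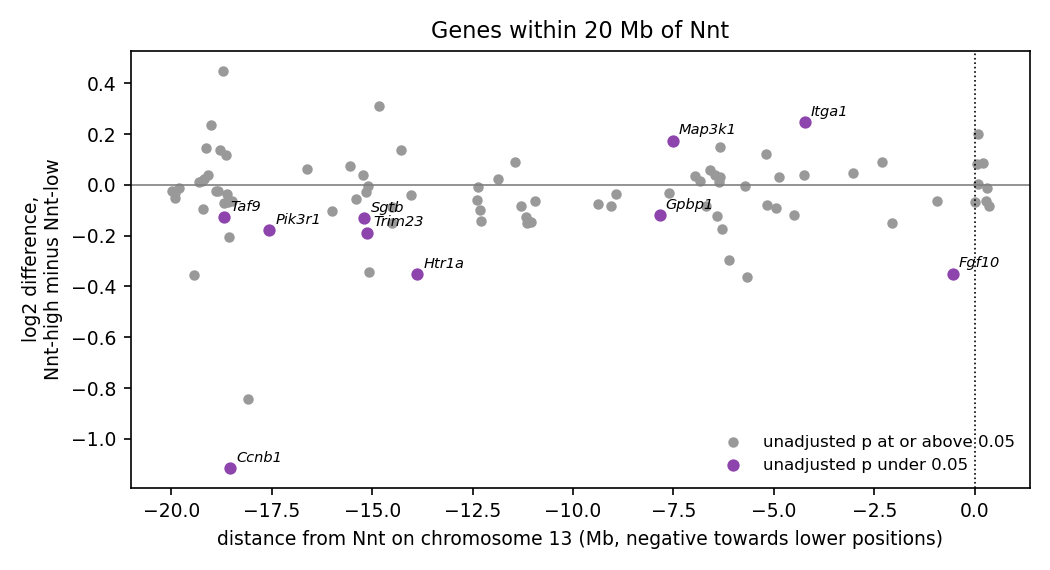
Log2 difference of Nnt-high minus Nnt-low mice (y axis) against distance from Nnt in Mb (x axis, negative towards lower positions) for the tested genes within 20 Mb that are reported here. Purple marks an unadjusted p under 0.05. Fgf10 is at -0.35, the genes adjoining Nnt lie near 0, and the purple genes are spread along the window.

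The third question was whether genes of mitochondrial redox balance differed with Nnt. None of the 10 other mitochondrial NADPH sources had an unadjusted p under 0.05, and their median log2 difference was -0.0061. Isocitrate dehydrogenase Idh2 (-0.022, 95% interval -0.18 to 0.14), malic enzyme Me3 (0.017, -0.13 to 0.17), glutamate dehydrogenase Glud1 (0.010, -0.12 to 0.14) and the mitochondrial NAD kinase Nadk2 (-0.062, -0.23 to 0.10) all had intervals around 0. The 0.56 log2 difference in Nnt itself was set by the ranking and is no yardstick for these intervals. Me2, the other mitochondrial malic enzyme, had the widest difference of the list at 0.34 (SE 0.17, adjusted p = 0.583 by edgeR). Its 95% interval of -0.038 to 0.72 held 0. Me2 was at 38.1, 31.5, 47.4, 46.2 and 41.0 CPM in Nnt-high and 24.4, 34.6, 42.6, 29.1 and 37.2 in Nnt-low mice, with overlap.

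The enzymes that spend NADPH on peroxide showed small differences. Glutathione reductase Gsr was at 32.0, 27.1, 31.1, 32.6 and 32.2 CPM in Nnt-high and 30.0, 31.8, 33.7, 30.4 and 30.8 in Nnt-low mice. The log2 difference was -0.010 (95% interval -0.16 to 0.14). Glutathione peroxidase Gpx4 (-0.0070) and glutaredoxin Glrx2 (-0.0010) were as close to 0. Gpx1, the main cytosolic and mitochondrial glutathione peroxidase, was at 76.3 ± 4.83 CPM in Nnt-high and 70.3 ± 4.30 in Nnt-low mice (SD, n = 5). Its log2 difference was 0.15 (SE 0.060, adjusted p = 0.560), with overlapping groups.

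In the thioredoxin branch Txn2 differed by 0.016, its reductase Txnrd2 by 0.017, the peroxiredoxins Prdx3 by -0.045 and Prdx5 by -0.071, and the superoxide dismutase Sod2 by -0.085, each with a 95% interval that held 0. By list, 2 of 29 glutathione genes, 0 of 18 thioredoxin and peroxiredoxin genes and 1 of 11 superoxide and peroxide genes had an unadjusted p under 0.05, all 3 of them higher in Nnt-high mice. Over all genes 8.90% were below 0.05, and counts this near that share are no result about the redox lists. The medians of these lists were -0.044, -0.044 and -0.024. Of 11 genes listed as cytosolic NADPH sources 1 was below 0.05, Aldh1a1, an aldehyde dehydrogenase of retinoic acid synthesis, at 0.47 (SE 0.17). Only its place in this list counts it as an NADPH source. Prdx4 (-0.17) and Sod3 (0.25) led their lists by p. Targets of the stress factor Nrf2 (0 of 15), NAD metabolism (0 of 15) and the mitochondrial stress response (0 of 14) had none below 0.05, and their leading members were Hmox1 at 0.31, Nmnat1 at 0.16 and Chac1 at -0.27.

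**Figure D4:**
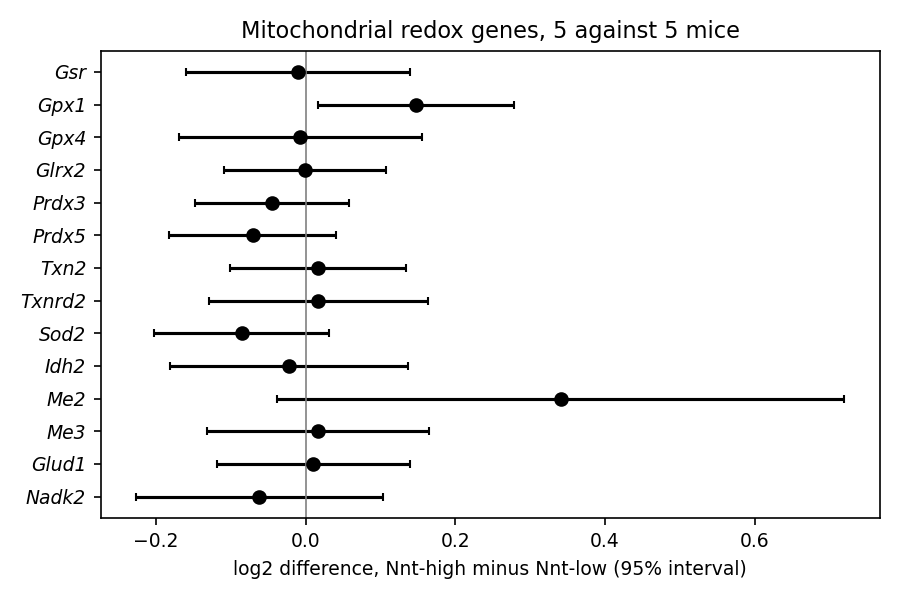
Log2 difference of Nnt-high minus Nnt-low mice (x axis) with 95% intervals from the edgeR fit for 14 mitochondrial redox genes (y axis). The interval of Gpx1 lies above 0, that of Me2 is the widest, and the others are centred between -0.085 and 0.017.

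Most genes of energy metabolism had log2 differences slightly below 0. Of 34 tested complex I subunits, which feed on the NADH that Nnt also uses, 26 had log2 differences below 0, with a median of -0.037 and 3 below 0.05 (beside 4.13% lower over all genes). The 3 were Ndufb6 (-0.12, SE 0.052), Ndufb4 (-0.14) and Ndufc2 (-0.12). The count rested on single mice. It was 0 without any 1 of J/J female 1, J/J male 8, N/N female 4, N/N male 9 and N/N male 12, 1 without J/J male 15 and 7 without N/N female 2, while the median ran from -0.055 to -0.013. Ndufs5 was listed at 0 in all mice and was not tested. Of 21 genes of the tricarboxylic acid cycle 15 were below 0, with a median of -0.046 and 3 below 0.05. That count was 0 without J/J male 8, 1 without any 1 of J/J male 15, N/N female 13, J/J female 1, N/N female 4 and N/N male 12, and at most 4 with another mouse left out, with the median at -0.056 to -0.037. Fumarase Fh1 led them, at 53.4, 50.8, 51.3, 53.8 and 55.5 CPM in Nnt-high and 60.3, 55.4, 57.7, 57.8 and 58.6 in Nnt-low mice, a log2 difference of -0.13 (SE 0.046). Its groups met at 55.5 and 55.4. Among 12 genes of mitochondrial biogenesis 8 had differences above 0, with a median of 0.027, and 1 was below 0.05 in each direction. Polrmt, the mitochondrial RNA polymerase, was higher without overlap, at 29.2 to 31.2 against 26.4 to 28.5 CPM (0.15, SE 0.052). Tfam, the mitochondrial transcription factor, was lower with overlap, at 29.7 to 32.0 against 30.2 to 35.5 CPM (-0.13, SE 0.052). No gene of these lists passed the adjusted threshold.

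Other genes known to differ between the substrains were looked up beside Nnt, since an F2 cross shuffles them. Of the 7 tested, 0 had an unadjusted p under 0.05 and the median log2 difference was -0.0034. Cyfip2 (0.060), Herc2 (0.060) and Gabra2 (-0.092) were close to 0. Wdfy1 (-0.28), Ide (-0.18), Adamts12 (0.33) and Crb1 (-0.0034) had standard errors of 0.22 to 0.58, and Wdfy1 ranged from 28.7 to 68.0 CPM within the Nnt-high group alone. Entpd4 was listed at 0 and Nlrp12 fell under the count filter.

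Cell-type marker lists were described by their counts and medians, and no marker of any list passed the adjusted threshold. In punches of bulk tissue fewer cells of a type and less RNA per cell cannot be told apart. All 11 microglial markers had log2 differences above 0, 9 of them with an unadjusted p under 0.05 (beside 4.77% of all genes), with a median log2 difference of 0.19. Cx3cr1, the fractalkine receptor, was at 93.6, 101, 96.6, 93.5 and 87.5 CPM in Nnt-high and 75.6, 91.4, 80.2, 83.6 and 92.0 in Nnt-low mice (0.19, SE 0.061). The summed list was at 693 to 842 CPM in Nnt-high and 618 to 715 in Nnt-low mice, with N/N female 13 highest. With 1 mouse left out, 2 to 10 of the 11 were below 0.05, and the median stayed between 0.13 and 0.24. The count was 2 without J/J male 8, 3 without N/N female 13 and 6 without J/J female 1.

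Markers of endothelium and mural cells had all 11 differences above 0, 4 of them below 0.05 (beside 4.77%), and a median of 0.15. With 1 mouse left out 2 to 6 were below 0.05, 2 of them without any 1 of N/N female 13, J/J female 1, J/J male 8 and N/N males 9 and 12. Flt1, a VEGF receptor, led them at 0.26 (SE 0.081). Their summed level was 448 to 548 CPM in Nnt-high and 420 to 475 in Nnt-low mice. Of 14 interneuron markers 11 had differences above 0 and 3 below, from -0.44 for the parvalbumin gene Pvalb to 0.47, with a median of 0.095. Above 0, 4 of them were below 0.05 (beside 4.77%), and with 1 mouse left out 2 to 4 were, 2 without N/N female 14, J/J female 1, J/J male 8 or N/N male 12. The summed interneuron level was nearly equal, with a log2 ratio of group means of -0.015. Slc5a7, the choline transporter of cholinergic neurons, led the list by p at 0.37 (SE 0.10). It was at 36.1, 35.2, 36.3, 37.3 and 37.4 CPM in Nnt-high and 22.7, 29.5, 37.5, 26.8 and 29.9 in Nnt-low mice, so that N/N male 9 alone reached the Nnt-high level. The astrocyte list had 1 of 11 below 0.05, the glutamate transporter gene Slc1a2 (0.17), and of the 2 blood genes tested both were, with Alas2 at 0.41. With 1 mouse left out each of these counts ran from 0 to 2. The haemoglobin genes Hba-a1, Hba-a2, Hbb-b1 and Hbb-b2 of that list were listed at 0, and Hbb-bt was not analysed here.

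Of 18 myelin markers 16 had log2 differences below 0, with a median of -0.15, and 2 lower ones, Ermn and Aspa, were below 0.05 (beside 4.13%). Pdgfra, which marks precursors rather than myelin, was at 0.18. Leaving out J/J male 8, so that only N/N mice set the difference, moved this list most. It then had 13 lower markers below 0.05 and a median of -0.32. Without N/N female 13 the median was -0.051 and the count 0, and the count was also 0 without any 1 of J/J male 15, N/N female 14 and N/N males 9 and 12. Their summed level was 5574 to 6780 CPM in Nnt-high mice, while the Nnt-low mice had 5185 in J/J male 8 and 6980 to 8716 in the other 4. Choroid plexus and ependyma markers had the lowest median, -0.78, with 4 of 9 lower below 0.05 (beside 4.13%). The count was 0 without any 1 of N/N male 12, J/J male 8 and J/J female 1, and 1 or 2 without any 1 of the other 4 Nnt-high mice. The median ran from -1.24 without N/N female 13 to -0.26 without N/N male 12. N/N male 12 of the Nnt-low group had 53.2 CPM in sum, and the other 9 mice had 15.6 to 26.4. Tmem212, a gene of ciliated cells, had the lowest log2 difference of the list, -2.67 (SE 1.05), from values of 0.573 CPM or less in Nnt-high mice and 3.06 in N/N male 12. Their part in the differences of other genes was not tested.

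Medium spiny neuron markers had a median log2 difference of 0.20, with 18 of 20 above 0 and 0 below 0.05. With J/J male 8 left out, so that only N/N mice set the difference, the median was -0.025 and 9 of 20 were above 0. Without N/N female 13 the median was 0.37 and 11 were below 0.05, and 4 were without N/N male 9. Their sums overlapped widely, at 7614 to 11264 and 5700 to 11329 CPM. Cortical glutamatergic markers had a median of -0.14, with 12 of 13 below 0, and the median ran from -0.22 without N/N female 13 to -0.015 without J/J male 8. Rasgrp2 (0.39) and Emx1 (-0.30) had the smallest p of these lists. Immediate early genes, which respond to recent activity such as the maze test, had a median of -0.071 and 0 of 15 below 0.05, with Fos at -0.35 (SE 0.16). The median turned to 0.041 without N/N female 13 and was -0.23 without N/N female 14. With a cortical score in the model 0 genes were called by edgeR, and 1773 had an unadjusted p under 0.05. When a myelin score was added to the model, an alternative chosen after the data were seen, 31 genes passed the adjusted threshold (0.189%). They included 4 of the 20 medium spiny neuron markers (Ppp1r1b, Gng7 and Adora2a among them), the cholinergic genes Slc5a7 and Chat, and also Hipk4. Without the score Ppp1r1b, Gng7 and Adora2a had log2 differences of 0.28 to 0.33 and unadjusted p-values of 0.082 to 0.221.

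**Figure D5:**
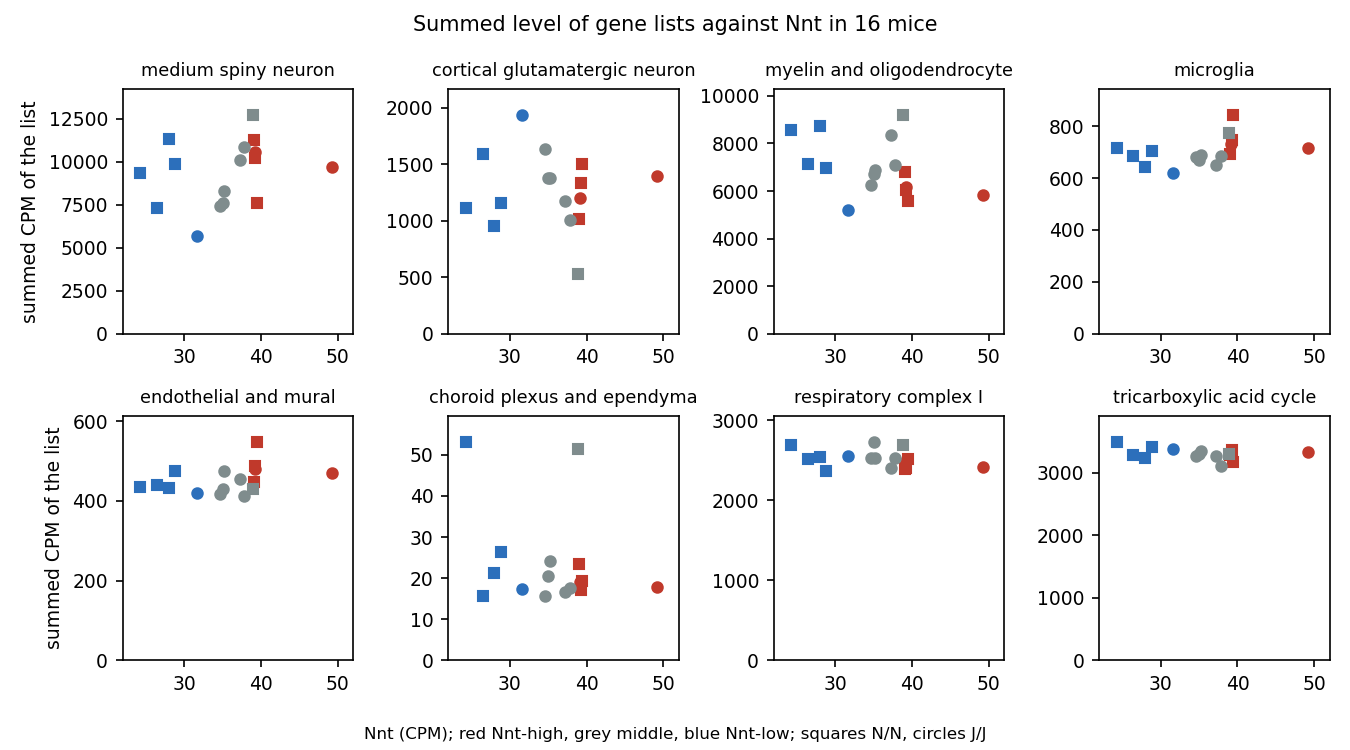
Summed CPM of 8 gene lists (y axes, from 0) against Nnt CPM (x axes) in all 16 mice, with Nnt-high mice in red, middle mice in grey and Nnt-low mice in blue, squares N/N and circles J/J. In the middle mice the medium spiny neuron sum climbs with Nnt from 7441 to 12706 CPM and the cortical sum descends from 1635 to 526, while across the extreme groups both overlap widely.

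The 6 middle mice gave the same measure in animals that did not form the groups. Their Nnt ran only from 34.7 to 38.9 CPM, and counting error alone leaves their order partly unresolved. The edgeR slope on log2 Nnt CPM, with genotype in the model, passed an adjusted p of 0.05 in 245 of 16215 genes (1.51%), and 1931 had an unadjusted p under 0.05 (11.9%). The genotype term fully fits N/N female 11, the sole N/N mouse, so the slope rests on the J/J mice, at 34.7 to 37.8 CPM. Of the 245, 147 increased and 98 decreased with Nnt. In the extreme groups 211 of them had the same sign, 36 of these with an unadjusted p under 0.05. Over all genes tested in both sets 9107 of 16117 had the same sign (56.5%), and among the 1463 genes below 0.05 in the extremes that were tested in both it was 933 of 1428 (65.3%).

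Medium spiny neuron genes were prominent among the calls in the middle mice. Of 20 markers 12 passed the adjusted threshold (beside 1.51% of all genes), all increasing with Nnt. In the other direction 2 of 13 cortical and 4 of 15 immediate early genes passed it. The summed medium spiny neuron level was 12706, 10860, 10074, 8282, 7607 and 7441 CPM in mice 11, 10, 7, 6, 16 and 3, which is the order of their Nnt. That order is barely resolved at the lower end, where mice 6, 16 and 3 had 35.2, 35.0 and 34.7 CPM of Nnt with 95% Poisson intervals that together ran from 32.6 to 37.5. In run 3 alone mouse 16 was the highest of the 6, at 39.2 CPM. The cortical sum was 526, 1004, 1176, 1377, 1383 and 1635 CPM in that order. Scel followed the same division, at 7.07, 8.05 and 5.75 CPM in mice 11, 10 and 7 and 4.15, 4.16 and 4.07 in mice 6, 16 and 3. Hipk4 was at 105, 113 and 104 CPM in the former and 72.8, 72.0 and 70.3 in the latter, and it passed the adjusted threshold in the middle mice (adjusted p = 0.0030), though not in the extreme groups (0.560).

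Of the redox genes Me2 alone passed among the mitochondrial NADPH sources in the middle mice, at 49.1, 47.2, 34.0, 28.4, 23.8 and 26.3 CPM in the same order of mice. Of the glutathione list 1 of 29 passed, decreasing, and of the 34 complex I subunits, the 21 tricarboxylic acid genes and the 11 microglial genes 0 passed. Over all genes 1.51% passed, and counts this near that share are no result about these lists. The microglial markers had an increasing slope in 5 of 11. N/N female 11 is the sole N/N mouse of the middle group and J/J male 3 its sole male and the mouse with its lowest Nnt. Without N/N female 11 237 genes passed, which is no check of the slope, since the genotype term already absorbs that mouse. Without J/J male 3 231 passed, and without J/J female 16 140 did.

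Whether the relation to Nnt differed between genotypes could not be tested in the extreme groups, because the Nnt-low group held a single J/J mouse. In its place the slope on Nnt was compared between genotypes over all 16 mice, and edgeR called 0 of 15680 genes at an adjusted p of 0.05, with 165 at an unadjusted p under 0.05. The latter count depended on J/J male 15, the mouse with the most Nnt, and was 1191 without it, with 0 called. The slope common to all 16 mice called 0 of the same genes, with a smallest adjusted p of 0.068 shared by Amz1 and Stard5, and 1715 at an unadjusted p under 0.05.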

How the data were processed

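The deposited files hold raw read counts per gene, 1 table for each mouse and run, from stranded poly(A) libraries read as 50 bp single ends per the labels' protocols. Per the submitters' processing notes, which give tools without their order, the authors used FastQC 0.11.3, TopHat2 2.1.0, HTSeq 0.6.1p1, edgeR 3.8.6 and limma 3.22.7, with the build mm10. The strand setting and annotation release are not given in the sources used here. Overlapping genes on opposite strands may share reads. The mm10 reference is the C57BL/6J genome, and reads of C57BL/6NJ alleles may align less well where alleles differ.

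The 4 runs of each mouse were summed over 23420 genes, and 5 summary rows were left out (reads in no gene were 19.9% of all reads, not uniquely aligned 21.8%, ambiguous 0.780%). CPM is the count scaled to the gene reads of the library. The 5 mice of highest and of lowest Nnt CPM were compared in edgeR 4.0.16 (R 4.3.3) with TMM factors (0.970 to 1.03), filterByExpr over the genotype by Nnt group cells (minimum count 10, minimum total 15), genotype as covariate and the robust quasi-likelihood test. Benjamini-Hochberg adjustment ran over all tested genes other than Nnt, with a threshold of 0.05, except for DESeq2. Its own adjusted p-values were used, which follow its own filtering and kept Nnt among the tests. SE is the log2 difference over the square root of F, and the typical biological coefficient of variation was 10.9%. The middle mice were tested for a slope on log2 Nnt CPM with genotype as covariate. Alternatives used DESeq2 1.42.0 and limma-voom 3.58.1. The edgeR group contrast and the edgeR slopes over all mice and over the middle mice were tried on simulated counts with known changes. Intervals of Nnt CPM are exact Poisson intervals and cover counting error only.

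The comparison, the 22 gene lists and the named genes were chosen with earlier results of these data known. Named were the 15 genes of smallest p with unannotated symbols passed over, all tested genes within 2 Mb of Nnt and the next 4 within 20 Mb, the leading member of each list, 13 redox partners, the substrain genes, and the 3 genes of highest and of lowest rank correlation with Nnt. Genes named from the alternatives and other list members were chosen after their values were seen. RefSeq positions were found for 99.6% of tested genes. Values of some single genes are not reported here.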

Additional observations from a re-analysis of the deposited data

Results flagged for a closer look

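In the Nnt-high and Nnt-low groups a value was picked out when its gap to the nearest other mouse exceeded Dixon's 95% critical value for the group's range. Over 150 groups (74 named genes and Nnt, each in both groups) 11 values were picked out, and chance alone picks out about 1 in 20 groups. Nnt was at 49.2 CPM in J/J male 15, against 39.0 to 39.4 in the other Nnt-high mice. Since the ranking on Nnt formed these groups, the critical value does not hold for Nnt, and its value is a description. The Nnt-high mouse N/N female 13 gave 5 of the 11. In it Fgf10 was at 2.99, Rasgrp2 at 162 and Gsr at 27.1 CPM, below the other 4, and Ccl28 was at 6.35 and Slc1a2 at 6101 CPM, above them. In N/N male 5 Mgat5b was low at 164 CPM and Tmem212 high at 0.573 CPM. Pik3r1 was low in N/N female 14 at 140 CPM. In the Nnt-low mouse N/N male 12 Tmem212 was at 3.06 CPM and Maats1 at 2.05 CPM, both above the others. None of these mice was left out of the comparison for that reason.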

How the results depend on the processing

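Between the extreme groups no gene was called with RLE factors, library size only, either other filter, limma-voom, no genotype term, a sex term, a cortical score, 3 levels or a linear term over 16 mice, 4 against 4 mice, or ranks from run 1, nor without any single mouse. DESeq2, with Nnt kept in its adjustment, called 15. The 8 against 8 comparison called 18 and the fit with a myelin score, added after seeing the data, 31. The cause of each count was not tested. The 1463 genes at an unadjusted p under 0.05 became 968 with a sex term and 711 when mice were ranked on run 1 and tested on runs 2 to 4. Leaving out single mice gave 619 (without J/J male 8) to 2248 (without N/N female 2), and 975 without J/J female 1. Without J/J male 8 only the N/N mice set the difference. In the middle mice, leaving out single mice gave 140 to 253 calls, and without the genotype term there were 832 calls and 3039 genes at an unadjusted p under 0.05. The slope by genotype, whose alternatives were added after seeing the data, gave 139 to 1191 genes at an unadjusted p under 0.05 with single mice left out, 1191 without J/J male 15, 268 without N/N female 14 and 312 without N/N female 4, and 0 called in each. The planned test of the Nnt group by genotype interaction in the 10 mice was not run, since 1 cell held a single mouse. No paired analysis was possible because each mouse number occurs in a single group.

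Of 74 named genes 18 changed sign under 46 combinations of gene and setting, all of them genes whose adjusted p stayed above 0.05 in that setting, with these log2 differences. With library size only 3110070M22Rik -0.0038. With no filter beyond 1 read 3110070M22Rik -0.0011. With at least 1 CPM in every mouse Glrx2 0.0024. By limma-voom Crb1 0.17. Without the genotype term 3110070M22Rik -0.037 and Glrx2 0.0072. With a sex term 3110070M22Rik -0.045. With a cortical score Nim1 0.0036, Gpx4 0.0071, Glrx2 0.015 and Me3 -0.013. With a myelin score Ccl28 -0.10, 3110070M22Rik -0.32, Gsr 0.058 and Adamts12 -0.21. In a fit of all 16 mice in 3 levels 3110070M22Rik -0.029 and Gpx4 0.0073. On a linear Nnt term over 16 mice 3110070M22Rik -0.094, Gpx4 0.0086, Txn2 -0.011, Txnrd2 -0.012, Glud1 -0.011 and Ide 0.015. With 4 against 4 mice Hmgcs1 0.037, Nim1 0.12, Emx1 0.069, Gpx4 0.067, Glrx2 0.061, Me3 -0.039 and Crb1 0.46. With 8 against 8 mice 3110070M22Rik -0.14, Gsr 0.0090, Gpx4 0.020, Txnrd2 -0.026, Glud1 -0.013, Gabra2 0.022, Ide 0.11 and Adamts12 -0.10. Ranked on run 1 and tested on runs 2 to 4 Gm7120 -0.061, Mrps30 0.030, Nim1 0.011, 3110070M22Rik -0.038, Gpx4 0.020, Txn2 -0.0062, Txnrd2 -0.015 and Ide 0.18. Leaving out single mice turned the sign of 17 genes, with ranges of Glrx2 (-0.033 to 0.043), Crb1 (-0.22 to 0.33), Mrps30 (-0.13 to 0.00038), Ccl28 (-0.19 to 0.29), 3110070M22Rik (-0.17 to 0.36), Gsr (-0.059 to 0.061), Glud1 (-0.022 to 0.042), Gabra2 (-0.18 to 0.0024), Adamts12 (-0.0019 to 1.17), Txn2 (-0.0088 to 0.047), Txnrd2 (-0.0072 to 0.041), Idh2 (-0.072 to 0.034), Nadk2 (-0.13 to 0.00075), Me3 (-0.016 to 0.053), Nim1 (-0.059 to 0.058), Gpx4 (-0.057 to 0.049) and Ide (-0.32 to 0.016). The library depth of 27405386 gene reads or more limits genes under about 1 CPM, such as Cd79b, Pmfbp1, Crb1, Adamts12 and Tmem212, the most.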

Other observations

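A pair of adjoining genes distal to Nnt varied more between mice than their relation to Nnt, and they were singled out after their values were seen. Gm7120, now named Tmem267, ranged from 11.3 CPM in N/N male 12 to 30.3 in J/J female 16, and Ccl28 from 1.62 in N/N female 4 to 6.77 in J/J female 16. J/J female 16, N/N female 13 and N/N female 2 held the top 3 values of both genes in that order, at 30.3, 24.9 and 21.8 CPM for Gm7120 and 6.77, 6.35 and 5.55 for Ccl28. These 3 mice lie in the middle, Nnt-high and Nnt-low groups. The rank correlations with Nnt over 16 mice were 0.18 and -0.047, as descriptions. The genes lie 0.0788 and 0.215 Mb from Nnt, and how far their reads are shared was not tested.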
